A study of Homo sapiens with 12 samples.

Results

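TXNIP, the thioredoxin-interacting protein, was followed with 9 related genes in RNA sequencing of 2 human prostate cancer cell lines. The 10 genes, of 19973 in the expression table, were taken by symbol: the alpha-arrestins TXNIP, ARRDC1, ARRDC2, ARRDC3 and ARRDC4, the glucose sensors MLXIP and MLXIPL with their partner MLX, and the thioredoxin genes TXN and TXNRD1. TXNIP was chosen by its read counts, which were higher in both comparisons of the study, so its values are given as a description and no test is drawn from them. The other 9 genes were named as its relatives and partners, with earlier results of these data known, and were tested. All 10 were in the table and passed the filter on low counts in every comparison.

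The study changed the amount of ARv7, a receptor splice variant that lacks the ligand-binding domain, in opposite directions. C4-2, a castration-resistant line derived from LNCaP, carried either a control lentivirus (C4-2 control) or a lentivirus expressing ARv7 (C4-2 ARv7). 22Rv-1, a line with ARv7 of its own, carried a lentivirus with a control short hairpin (22Rv-1 shcontrol) or one with a hairpin against ARv7 (22Rv-1 shARv7). Each of the 4 groups had 3 libraries from separate dishes. All groups carried a lentivirus and were selected with puromycin, and the sources used here do not say how many selected populations stood behind the 3 dishes of a group. The p-values below therefore measure only the spread between dishes. Total counts ran from 12318529 to 14672948 per library, at which 3 counts correspond to 0.204 to 0.244 CPM, a unit that puts counts relative to the library's size. Duplicate reads from PCR were counted like any others. C4-2 control replicate 3 stood apart from its group, where chi-square divided by its degrees of freedom was 12.3 and 6.85 against the other two libraries and 2.10 to 4.64 for all other pairs of replicates. Without it the C4-2 calls of the 9 tested genes were the same.

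KLK3, HOXB13, FOLH1, EPCAM, KRT8 and KRT18, which mark prostate luminal cells, were present in all libraries. Of 13 markers of other cells, DES was at 0 in every library, and 10 were under 1 CPM in every library of C4-2 control, C4-2 ARv7 and 22Rv-1 shcontrol, as were 9 in 22Rv-1 shARv7. The summed level of the 13 markers ran from 12.3 to 15.4 CPM in C4-2 control, from 19.1 to 22.0 in C4-2 ARv7, from 22.2 to 24.3 in 22Rv-1 shcontrol and from 25.9 to 27.99 in 22Rv-1 shARv7. This sum was thus higher in both treated groups, most of it COL1A1 and, in C4-2, VWF, and its part in the results below was not tested.

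Alpha-arrestins are adaptor proteins that bring ubiquitin ligases of the NEDD4 family to membrane proteins, which are then taken into the cell. TXNIP also binds reduced thioredoxin and blocks it, and it promotes the internalisation of the glucose transporter GLUT1. When glucose enters a cell and is phosphorylated, the sensors MondoA (encoded by MLXIP) and ChREBP (encoded by MLXIPL), each paired with MLX, bind carbohydrate response elements in DNA and induce TXNIP and ARRDC4. ARRDC3 is known for acting on integrin beta-4, and ARRDC1 for the budding of small vesicles from the plasma membrane.

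Carbohydrate response elements are built from 2 E-box half-sites set 5 bases apart, so the bases before the transcription start are shown for TXNIP, for the other 2 arrestins with the largest changes and for MLX. These are the 250 bases upstream of the first start RefSeq gives, on GRCh38.p14, at chr1:145996580-145996829 (minus strand) for TXNIP, chr15:97960453-97960702 (plus strand) for ARRDC4, chr5:91383318-91383567 (minus strand) for ARRDC3 and chr17:42566850-42567099 (plus strand) for MLX. Capitals mark a pair of half-sites, searched on both strands as CACGNG or CNCGTG followed by either of them after 5 bases, or the palindromic E-box CACGTG.
TXNIP: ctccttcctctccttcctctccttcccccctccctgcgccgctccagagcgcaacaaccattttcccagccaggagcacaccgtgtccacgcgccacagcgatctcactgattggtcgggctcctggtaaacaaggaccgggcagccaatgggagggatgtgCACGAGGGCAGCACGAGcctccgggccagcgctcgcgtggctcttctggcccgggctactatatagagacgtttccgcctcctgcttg
ARRDC4: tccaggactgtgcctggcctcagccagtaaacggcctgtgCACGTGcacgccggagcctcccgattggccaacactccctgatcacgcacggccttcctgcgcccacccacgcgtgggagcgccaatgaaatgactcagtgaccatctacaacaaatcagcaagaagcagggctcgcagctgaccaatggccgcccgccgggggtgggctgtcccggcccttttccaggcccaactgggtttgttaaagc
ARRDC3: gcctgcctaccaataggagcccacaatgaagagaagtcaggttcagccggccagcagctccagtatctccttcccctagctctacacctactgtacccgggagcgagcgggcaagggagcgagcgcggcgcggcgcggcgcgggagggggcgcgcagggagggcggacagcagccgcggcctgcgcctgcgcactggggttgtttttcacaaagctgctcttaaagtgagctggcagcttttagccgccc
MLX: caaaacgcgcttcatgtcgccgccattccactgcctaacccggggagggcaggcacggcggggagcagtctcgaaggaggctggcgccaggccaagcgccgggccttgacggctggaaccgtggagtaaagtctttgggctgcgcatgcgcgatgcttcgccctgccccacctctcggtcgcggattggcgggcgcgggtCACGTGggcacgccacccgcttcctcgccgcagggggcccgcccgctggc
The TXNIP window held one such pair, CACGAGGGCAGCACGAG, lying 88 to 72 bases before the start. Of 35116 RefSeq promoter windows of the same length, 23 held a pair (0.0655%), and among the 14 windows listed for the 10 genes this was the only one. ARRDC4 held CACGTG 210 to 205 bases before its start and MLX held it 50 to 45 bases before, a motif in 6.34% of all windows. Neither motif was in the ARRDC3 window. CCAAT or its complement ATTGG, found in 32% of all windows, stood at 2 places in the TXNIP window and 3 in that of ARRDC4. It was also in windows of ARRDC1, ARRDC2, ARRDC3, MLXIP, MLX and TXNRD1, so it was not particular to TXNIP and ARRDC4. The half-site AGAACA or TGTTCT of steroid receptors was in 12.4% of all windows and, among the 14, in 1 window of TXNRD1. A match is a run of letters, and binding was not measured.

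TXNIP, at chromosome 1, 145992435 to 145996579 on the minus strand of GRCh38, was higher in both treated groups. Its counts were 181, 207 and 188 in C4-2 control and 4064, 4122 and 3431 in C4-2 ARv7. After scaling between libraries of the line by TMM, these were 12.8, 14.7 and 14.1 CPM against 264, 282 and 265 CPM. The means were 13.9 ± 0.976 and 270.1 ± 9.94 CPM (SD, n = 3 here and below), a 19.4-fold difference or 4.28 on the log2 scale. In 22Rv-1 its counts were 152, 168 and 141 in shcontrol and 1376, 1320 and 1321 in shARv7. These corresponded to 10.8, 13.02 and 9.78 CPM against 104, 101 and 93.2 CPM. The means were 11.2 ± 1.66 and 99.3 ± 5.46 CPM, an 8.89-fold difference or 3.15 on the log2 scale.

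Every treated library thus stood far above every control library of its line. ARv7 was added in one line and depleted in the other, and the level of TXNIP was higher with each. Of the genes tested, 61 of 12783 had a larger rise in C4-2 and 91 of 13459 in 22Rv-1. Higher expression per cell and more expressing cells cannot be told apart in bulk RNA. Reads from the 13 mitochondrially encoded genes were 4.36% ± 0.297 of counts in C4-2 control and 3.40% ± 0.115 in C4-2 ARv7, and 3.95% ± 0.0246 in 22Rv-1 shcontrol and 3.37% ± 0.0465 in shARv7. This share was lower in both treated groups. Reads from 82 ribosomal protein genes were 9.06% ± 0.632 of counts in C4-2 control and 7.25% ± 0.104 in C4-2 ARv7. In 22Rv-1 they were 6.36% ± 0.15 in shcontrol and 7.39% ± 0.222 in shARv7, so this second share moved in opposite directions. The part of either share in the results was not tested.

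**Figure D1:**
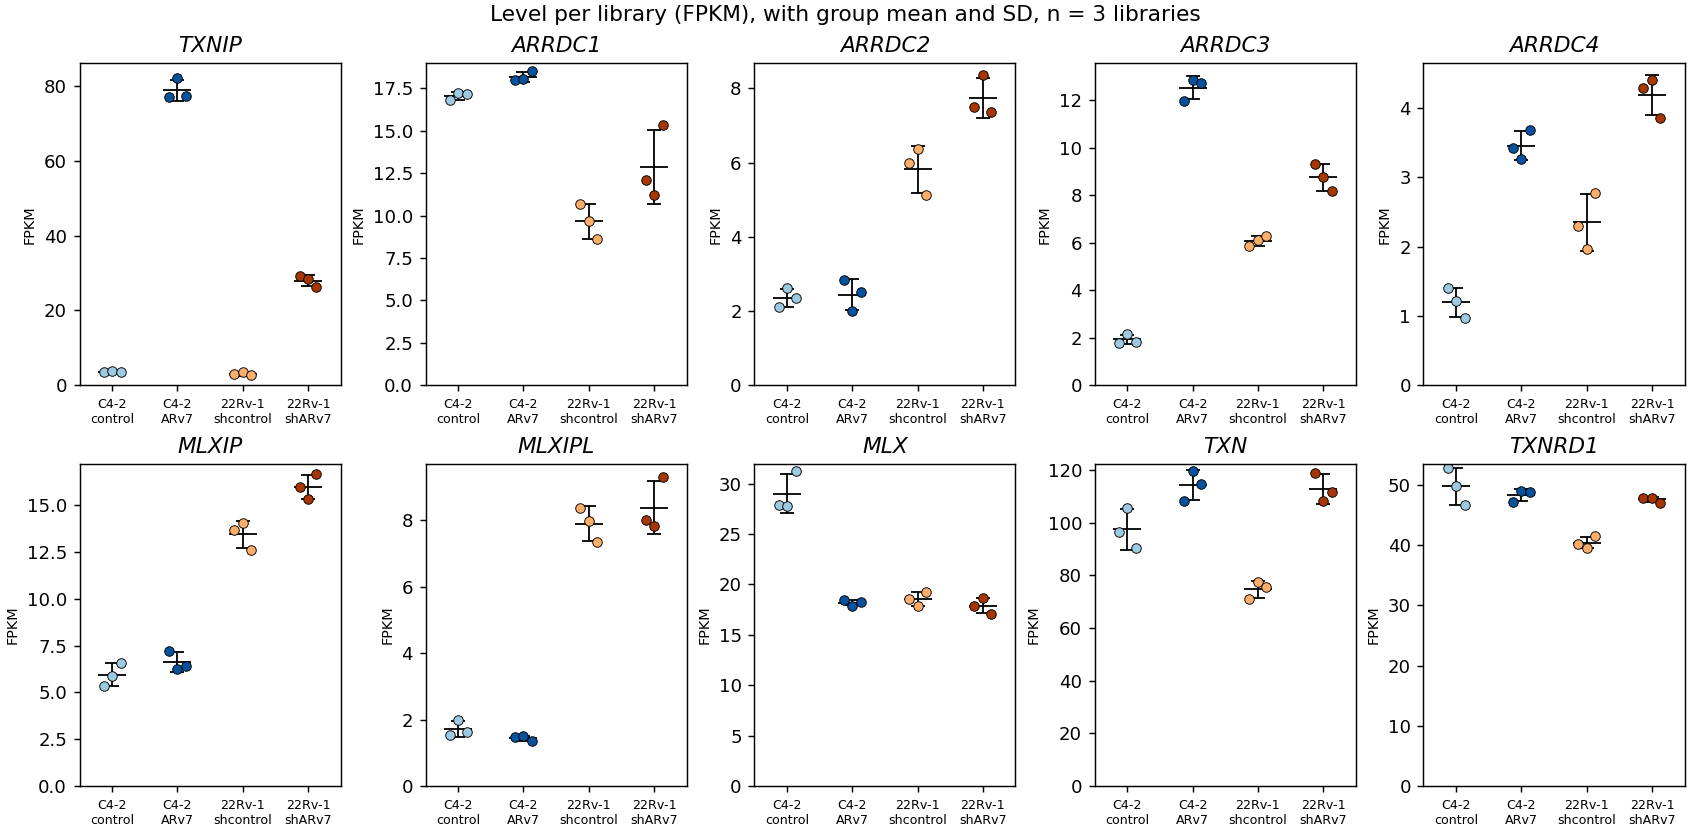
Level of each of the 10 genes in FPKM (the authors' counts scaled to gene length and library total) in the 12 libraries. Points are libraries, horizontal bars the group mean and whiskers the SD (n = 3), and each panel has its own scale from 0. TXNIP goes from 3.66 to 78.8 FPKM in C4-2 and from 3.05 to 27.97 FPKM in 22Rv-1, while TXNRD1 stays between 39.6 and 52.9 FPKM in all libraries.

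Per length, in FPKM, TXN was the most abundant of the 10 genes in all 4 groups and TXNRD1 the next most abundant in 3 of them. TXNIP ranked 6 of 10 in C4-2 control, with a mean of 3.66 ± 0.238 FPKM below MLXIP (5.93 ± 0.617) and above ARRDC2 (2.36 ± 0.251). In C4-2 ARv7 it ranked 2, at 78.8 ± 2.82 FPKM, between TXN (114 ± 5.74) and TXNRD1 (48.3 ± 1.06), with no overlap to either. In 22Rv-1 shcontrol it ranked 9, at 3.05 ± 0.449 FPKM, and in 22Rv-1 shARv7 it ranked 3, at 27.97 ± 1.47 FPKM, between TXNRD1 (47.6 ± 0.46) and MLX (17.9 ± 0.773). Some neighbours could not be ordered: the libraries of MLX (17.9 to 18.5 FPKM) and ARRDC1 (18.0 to 18.5 FPKM) overlapped in C4-2 ARv7. In 22Rv-1 shcontrol those of ARRDC3 (5.87 to 6.28 FPKM) and ARRDC2 (5.13 to 6.37 FPKM) overlapped, and also those of TXNIP (2.67 to 3.55 FPKM) and ARRDC4 (1.97 to 2.78 FPKM). The libraries of ARRDC3 overlapped with those of ARRDC2 and of MLXIPL in C4-2 control. ARRDC3, MLXIPL and ARRDC2 overlapped with each other in 22Rv-1 shARv7.

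The make-up of the alpha-arrestin pool shifted toward TXNIP. The summed FPKM of the 5 arrestins was 26.2 ± 0.834 in C4-2 control and 115 ± 2.54 in C4-2 ARv7, and 27.0 ± 1.31 in 22Rv-1 shcontrol and 61.5 ± 0.703 in 22Rv-1 shARv7. The share of TXNIP in this sum was 13.9% ± 0.472 in C4-2 control and 68.3% ± 1.03 in C4-2 ARv7. In 22Rv-1 it was 11.3% ± 1.32 in shcontrol and 45.5% ± 2.04 in shARv7. ARRDC1 was the most abundant arrestin in both control groups, where TXNIP held the smaller part. The other 4 arrestins together went from 22.5 to 36.6 FPKM in C4-2 and from 23.9 to 33.6 FPKM in 22Rv-1. Since TXNIP was picked for its values, these shares are a description too.

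**Figure D2:**
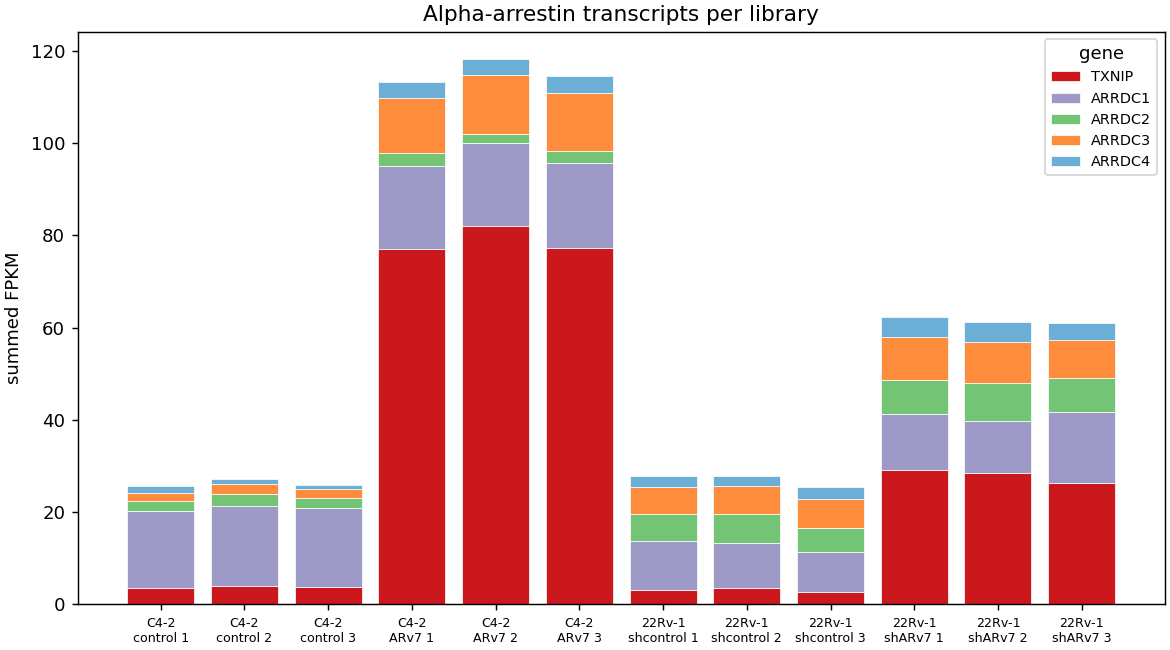
Summed FPKM of the 5 alpha-arrestins in each library, stacked by gene. The 3 C4-2 ARv7 libraries reach 113 to 118 FPKM and the 3 22Rv-1 shARv7 libraries 61.1 to 62.3 FPKM, against 25.5 to 27.8 FPKM in the control libraries of both lines, and TXNIP makes up most of the added height.

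Each of the other genes, chosen with earlier results known, was tested in treated against control libraries with edgeR's quasi-likelihood test. The p-values were adjusted by Benjamini and Hochberg over all genes tested, with 0.05 as the threshold. In C4-2, 59.1% of the 12783 tested genes passed (29.6% higher, 29.5% lower). Of the 9 genes other than TXNIP, 5 did so: ARRDC3 and ARRDC4 rose, and MLX, MLXIPL and TXNRD1 fell. In 22Rv-1, 48% of the 13459 tested genes passed (23.9% higher, 24.1% lower). Of the 9 genes, 7 did so, all upward: ARRDC1, ARRDC2, ARRDC3, ARRDC4, MLXIP, TXN and TXNRD1. The libraries of treated and control cells overlapped for none of these called genes, where 32% of all genes in C4-2 lay wholly higher and 31.3% wholly lower, and 26.9% and 26.8% in 22Rv-1. The share called in C4-2 is close to that of all genes. ARRDC3 and ARRDC4 rose in both lines. The calls in C4-2 were even in direction with TMM (50.03% higher) but not with total counts (67.2% higher) or limma on FPKM (65.6%). With total counts the median log2 change of all C4-2 genes was 0.15, against 0.0051 with TMM.

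**Figure D3:**
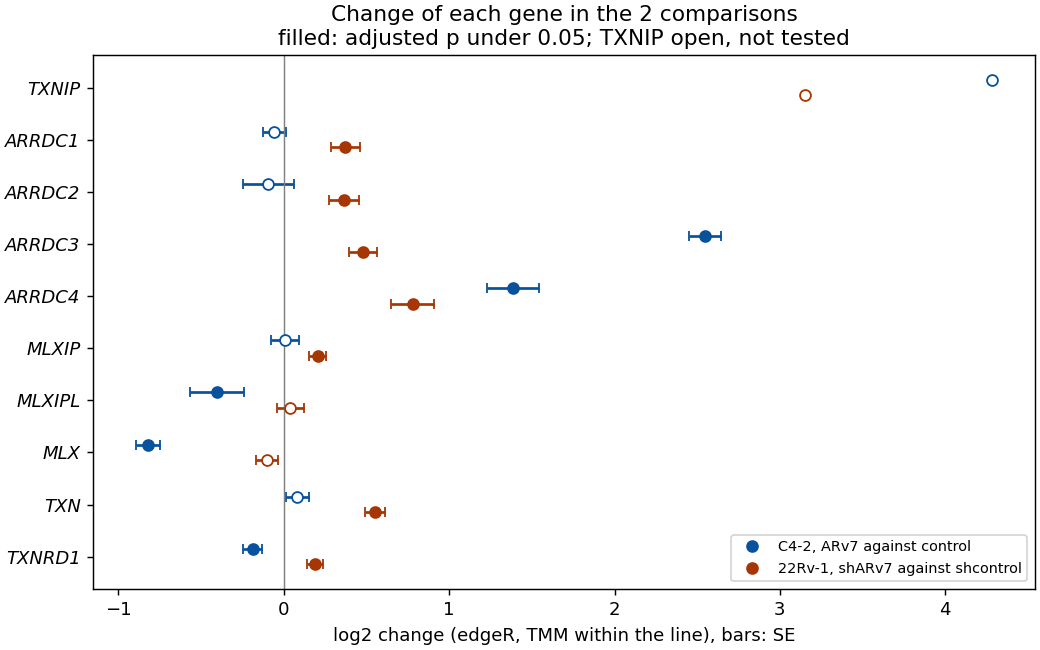
log2 change of each gene (x axis) in C4-2, ARv7 against control (blue), and in 22Rv-1, shARv7 against shcontrol (brown), from edgeR with TMM scaling, with bars of 1 SE. Filled points passed an adjusted p of 0.05 and TXNIP is open because it was not tested; with total counts TXNRD1 and MLXIPL no longer pass in C4-2 and TXN does. ARRDC3 at 2.55 and ARRDC4 at 1.38 stand apart from the other tested genes in C4-2, while the 22Rv-1 changes of the tested genes lie between -0.10 and 0.78.

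ARRDC3 (chromosome 5, 91368631 to 91383317, minus strand) had the largest change of the 9 tested genes in C4-2. Its level was 9.28, 11.2 and 9.90 CPM in C4-2 control and 56.8, 61.1 and 60.2 CPM in C4-2 ARv7. It rose 5.85-fold, or 2.55 on the log2 scale (SE 0.097, edgeR adjusted p = 2.43e-14), and the groups did not overlap. In 22Rv-1 it stood at 29.8, 31.0 and 31.8 CPM in shcontrol and at 46.0, 42.9 and 40.1 CPM in shARv7. It rose 1.39-fold there, by 0.48 on the log2 scale (SE 0.084, edgeR adjusted p = 1.71e-06), again with every treated library above every control. The change was larger in C4-2 by 2.08 on the log2 scale, in a fit of all 12 libraries (SE 0.13, edgeR adjusted p = 2.50e-16). An antisense gene, ARRDC3-AS1, shares 145 exon bases with ARRDC3, and the sources used here do not say whether counting used strand.

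ARRDC4 (chromosome 15, 97960703 to 97973833, plus strand), the arrestin induced with TXNIP by glucose, had low counts in C4-2 control: 83, 72 and 57, against 203, 185 and 184 in C4-2 ARv7. In CPM these were 5.88, 5.12 and 4.27 against 13.2, 12.6 and 14.2. It rose 2.61-fold, or 1.38 on the log2 scale (SE 0.157, edgeR adjusted p = 3.35e-07). In 22Rv-1 its level was 9.50, 8.14 and 11.4 CPM in shcontrol and 17.2, 17.6 and 15.4 CPM in shARv7. It rose 1.72-fold there, by 0.78 on the log2 scale (SE 0.132, edgeR adjusted p = 6.95e-07), and neither line had overlapping groups. The larger change in C4-2 (by 0.62 on the log2 scale, edgeR adjusted p = 0.0147) no longer passed without 22Rv-1 shcontrol replicate 3 (0.48, edgeR adjusted p = 0.07).

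ARRDC1 (chromosome 9, 137605685 to 137615360, plus strand), the arrestin of vesicle budding, stood at 68.1 ± 2.31 CPM in C4-2 control and 65.5 ± 0.935 CPM in C4-2 ARv7. The log2 change was -0.06, with a 95% interval of -0.20 to 0.09 (edgeR adjusted p = 0.494). In 22Rv-1 it stood at 41.2, 37.4 and 33.1 CPM in shcontrol and at 45.3, 41.8 and 57.0 CPM in shARv7. It rose by 0.37 on the log2 scale (SE 0.0873, edgeR adjusted p = 0.000252), with treated replicate 3 well above the rest. Without that library the call was lost and the change was 0.22 (edgeR adjusted p = 0.0541). ARRDC2 (chromosome 19, 18001132 to 18014102, plus strand), a less studied arrestin, stood at 11.5 ± 1.29 CPM in C4-2 control and 10.8 ± 1.88 CPM in C4-2 ARv7, a log2 change of -0.09 with a 95% interval of -0.41 to 0.22 (edgeR adjusted p = 0.623). In 22Rv-1 it rose from 27.5 ± 3.03 to 35.4 ± 2.46 CPM, by 0.37 on the log2 scale (SE 0.0914, edgeR adjusted p = 0.000563). ARRDC1 and ARRDC2 each share exon bases with an annotated overlapping gene, 183 and 442 bases at most, so part of their reads could belong to those genes.

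MLX (chromosome 17, 42567072 to 42573239, plus strand), the partner that both sensors need to bind DNA, fell in C4-2. It stood at 123, 124 and 144 CPM in C4-2 control and at 74.7, 72.5 and 73.6 CPM in C4-2 ARv7. It fell by 0.82 on the log2 scale, 1.77-fold (SE 0.071, edgeR adjusted p = 6.85e-09), and the highest treated library was well below the lowest control. In 22Rv-1 it went from 80.3 ± 2.81 to 74.9 ± 3.30 CPM, a log2 change of -0.10 with a 95% interval of -0.23 to 0.03 (edgeR adjusted p = 0.192). The change in C4-2 was lower than that in 22Rv-1 by 0.71 on the log2 scale (edgeR adjusted p = 8.28e-08). Its exons share 770 bases with those of PSMC3IP on the other strand. PSMC3IP stood at 9.26 CPM in C4-2 control and 10.2 CPM in C4-2 ARv7 (edgeR adjusted p = 0.484) and fell by 0.81 on the log2 scale in 22Rv-1 (edgeR adjusted p = 6.26e-11).

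MLXIP (chromosome 12, 122078756 to 122147344, plus strand), which encodes MondoA, stood at 86.8 ± 11.2 CPM in C4-2 control and 87.2 ± 6.88 CPM in C4-2 ARv7. The 95% interval of its log2 change there was -0.17 to 0.18 (edgeR adjusted p = 0.943). In 22Rv-1 it went from 193, 198 and 177 CPM to 219, 209.5 and 227 CPM. It rose by 0.20 on the log2 scale (SE 0.0515, edgeR adjusted p = 0.000603), without overlap. MLXIPL (chromosome 7, 73593194 to 73624543, minus strand), which encodes ChREBP, had 7.65, 10.0 and 8.47 CPM in C4-2 control and 6.76, 6.83 and 6.17 CPM in C4-2 ARv7. Its fall by 0.40 on the log2 scale barely passed (edgeR adjusted p = 0.0415) and was lost with DESeq2 (adjusted p = 0.0939), with total counts (edgeR adjusted p = 0.187), in limma on FPKM (adjusted p = 0.156) and when any of 4 libraries was left out (edgeR adjusted p from 0.0705 to 0.188). In 22Rv-1 it stood at 38.7 ± 2.59 and 39.7 ± 3.75 CPM, a log2 change of 0.04 with a 95% interval of -0.13 to 0.21 (edgeR adjusted p = 0.725). Of the FPKM of both sensors together, MLXIPL made up 22.5% ± 2.76 in C4-2 control and 37.0% ± 0.914 in 22Rv-1 shcontrol, so MLXIP was the more abundant sensor per length in both lines.

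TXN (chromosome 9, 110243810 to 110256507, minus strand), the thioredoxin that TXNIP binds, rose in 22Rv-1. It stood at 73.2, 79.6 and 77.3 CPM in shcontrol and at 119, 107 and 111 CPM in shARv7. It rose 1.46-fold, by 0.55 on the log2 scale (SE 0.0612, edgeR adjusted p = 2.96e-12), with no overlap. In C4-2 it stood at 103.7 ± 6.83 CPM in control and 109.8 ± 5.57 CPM in ARv7 libraries, a log2 change of 0.08 with a 95% interval of -0.06 to 0.22 (edgeR adjusted p = 0.313). With total counts that change was 0.23 and passed (edgeR adjusted p = 0.00992), as it did in limma on FPKM (adjusted p = 0.0103). The ratio of the FPKM of TXN to that of TXNIP was 26.7 ± 1.53 in C4-2 control and 1.45 ± 0.0402 in C4-2 ARv7. It was 24.8 ± 3.23 in 22Rv-1 shcontrol and 4.04 ± 0.225 in 22Rv-1 shARv7. These are ratios of transcripts, and protein was not measured.

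TXNRD1 (chromosome 12, 104215779 to 104350307, plus strand), the reductase that keeps thioredoxin in its reduced form, changed by small amounts, in opposite directions. It stood at 366, 349 and 339 CPM in C4-2 control and at 300.5, 313 and 312 CPM in C4-2 ARv7, without overlap. It fell by 0.19 on the log2 scale (SE 0.0557, edgeR adjusted p = 0.00664), which neither total counts (-0.04, edgeR adjusted p = 0.536) nor limma on FPKM (adjusted p = 0.555) called. In 22Rv-1 it rose by 0.19 (SE 0.0467, edgeR adjusted p = 0.000451), from 276 ± 6.05 to 315 ± 3.77 CPM. The difference between these changes was -0.36 on the log2 scale (edgeR adjusted p = 5.27e-05).

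The changes of most of the genes differed between the lines. The difference of the log2 changes, C4-2 minus 22Rv-1, passed for 8 of the 9 tested genes, against 50.2% of the 14235 genes in the fit of all libraries (25.1% positive, 25.1% negative). It was positive for ARRDC3 and ARRDC4 and negative for ARRDC1 (-0.41), ARRDC2 (-0.44), MLXIPL (-0.43), MLX, TXN (-0.45) and TXNRD1. It did not pass for MLXIP, at -0.18 with a 95% interval of -0.38 to 0.02 (edgeR adjusted p = 0.134). The calls of ARRDC1, ARRDC2, ARRDC4 and MLXIPL each depended on single libraries or settings, and 5 of the 9 genes passed without 22Rv-1 shcontrol replicate 3 (1 positive, 4 negative) and in limma on FPKM (2 positive, 3 negative). For TXNIP, as a description, the difference was 1.14.

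The lines also differed in their control groups, where the study had not changed ARv7. In the control groups, 5 of the 9 genes were higher in 22Rv-1 and 4 were lower, in a comparison in which 83.4% of all genes passed (42.5% higher, 40.9% lower). None of the 9 had overlapping groups, where 42.2% of all genes lay wholly higher in 22Rv-1 and 40.4% wholly lower. MLXIPL was 4.14-fold higher in 22Rv-1 shcontrol than in C4-2 control (log2 2.05, SE 0.115, edgeR adjusted p = 1.32e-18). ARRDC3 was 2.84-fold, ARRDC2 2.22-fold, MLXIP 2.04-fold and ARRDC4 1.78-fold higher. ARRDC1 was 1.96-fold, MLX 1.73-fold, TXN 1.45-fold and TXNRD1 1.36-fold lower in 22Rv-1 shcontrol. TXNIP stood 1.33-fold lower in 22Rv-1 shcontrol (log2 -0.41). The control viruses differed too, a vector in C4-2 and a hairpin in 22Rv-1, and 22Rv-1 has ARv7 of its own. Neither can be told apart from the line.

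Genes around the alpha-arrestins were counted from lists written out by role. Each list's counts can be set against the share of every tested gene that passed with TMM. For C4-2 this share was 29.6% higher and 29.5% lower, and for 22Rv-1 it was 23.9% higher and 24.1% lower. A list's median log2 change is set beside the median over all genes, 0.0051 in C4-2 and 0.0089 in 22Rv-1. Of the 7 tested genes with an arrestin fold other than the 5 above, 1 rose and 5 fell in C4-2, at a median log2 change of -0.29, and 1 rose and 3 fell with total counts. VPS26C, a subunit of the Commander sorting complex, fell from 94.5 ± 1.18 to 60.7 ± 1.36 CPM (edgeR adjusted p = 7.77e-08). ARRB1, the beta-arrestin 1 gene, fell by 0.53 on the log2 scale and VPS26B, of the retromer complex, by 0.42. RGP1, a cofactor in Golgi transport, rose by 0.22, a call lost without control replicate 2 or ARv7 replicate 2 (edgeR adjusted p = 0.0836 and 0.0623). In 22Rv-1, 1 of 7 fell and none rose: VPS26A, the other retromer subunit of this fold, fell by 0.25 on the log2 scale (edgeR adjusted p = 0.00204). VPS26A fell in C4-2 too, by 0.19 (edgeR adjusted p = 0.0172). ARRDC5 and SAG did not pass the filter on low counts in either line.

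The ubiquitin ligases that alpha-arrestins recruit split in both directions. Of 8 tested NEDD4-family genes, 2 rose and 3 fell in C4-2 and 2 rose and 3 fell in 22Rv-1, with medians of -0.02 and -0.17; with total counts 3 rose and 2 fell in C4-2, at a median of 0.13. NEDD4 rose from 6.06 ± 0.762 to 14.0 ± 1.14 CPM in C4-2 (edgeR adjusted p = 1.04e-06) and went from 30.5 ± 1.50 to 26.6 ± 3.09 CPM in 22Rv-1, which did not pass. SMURF2 fell in both lines, by 0.79 and 0.25 on the log2 scale. WWP1 fell in C4-2 by 0.49 and rose in 22Rv-1 by 0.25, whereas WWP2 rose in C4-2 by 0.29 and fell in 22Rv-1 by 0.47. NEDD4L rose in 22Rv-1 by 0.25, a call lost in limma on FPKM (adjusted p = 0.109). Of the 4 genes that work with ARRDC1 in vesicle budding, TSG101 and VPS4A fell in C4-2, by 0.31 and 0.39 on the log2 scale, and TSG101 rose in 22Rv-1 by 0.17, a call lost without any of 5 of the 6 libraries, all but shcontrol replicate 3 (edgeR adjusted p from 0.0605 to 0.123). With total counts the other 2 of these genes, VPS4B and PDCD6IP, rose in C4-2.

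Of 8 receptors and transporters that alpha-arrestins are known to act on, 3 rose and 1 fell in C4-2, or 5 and 1 with total counts, and 3 rose and none fell in 22Rv-1. SLC2A1, which encodes GLUT1, fell in C4-2 from 91.6 ± 8.83 to 65.3 ± 6.12 CPM (log2 -0.49, edgeR adjusted p = 4.20e-05). In 22Rv-1 it stood at 64.4 ± 0.553 and 66.7 ± 2.703 CPM and did not pass (edgeR adjusted p = 0.561). SLC2A4, the gene of the insulin-responsive transporter GLUT4, rose in C4-2 from a low level, with counts of 13, 17 and 10 against 38, 35 and 42. F2R, a thrombin receptor, rose in C4-2 by 0.51 on the log2 scale. In 22Rv-1 ITGB4, the integrin beta-4 gene, rose from 26, 11 and 15 counts to 47, 45 and 47, and NOTCH1 rose by 0.18. The NOTCH1 call was lost with DESeq2 (adjusted p = 0.116) and without shcontrol replicate 1 or 3 or shARv7 replicate 2 or 3 (edgeR adjusted p from 0.124 to 0.178).

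Genes that MondoA or ChREBP are known to induce with glucose moved in both directions. Of 12 tested, 6 rose and 3 fell in C4-2 at a median log2 change of 0.45, or 8 and 2 with total counts, and 5 rose and 4 fell in 22Rv-1 at a median of 0.14. KLF10 and GPD1, a transcription repressor and a glycerol phosphate dehydrogenase, rose in both lines; both were chosen after their values were seen. KLF10 stood at 11.5, 11.7 and 11.8 CPM in C4-2 control and at 15.98, 17.5 and 16.8 CPM in C4-2 ARv7 (log2 0.52, edgeR adjusted p = 0.00082). It stood at 33.8, 31.2 and 34.7 CPM in 22Rv-1 shcontrol and at 43.9, 40.4 and 42.3 CPM in shARv7 (log2 0.34, edgeR adjusted p = 0.000359). The KLF10 groups overlapped in neither line. GPD1 had counts of 13, 10 and 6 in C4-2 control against 28, 23 and 16 in C4-2 ARv7. In 22Rv-1 its counts were 36, 22 and 35 in shcontrol and 48, 31 and 81 in shARv7, so the groups overlapped and shARv7 replicate 3 stood highest.

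Besides KLF10 and GPD1, no gene on that list passed as a rise in both lines with TMM. PFKFB3, which raises glycolytic flux through fructose 2,6-bisphosphate, fell from 73.9 ± 4.72 to 31.4 ± 2.42 CPM in C4-2 (log2 -1.23, edgeR adjusted p = 1.26e-10) and rose by 0.36 in 22Rv-1. ACACB, an acetyl-CoA carboxylase, rose by 1.27 on the log2 scale in C4-2 and fell by 0.58 in 22Rv-1. KLF11 rose by 0.53 in C4-2 and fell by 0.34 in 22Rv-1. PNPLA3, a lipid droplet enzyme, rose by 1.35 in C4-2, and its change of 0.36 in 22Rv-1 did not pass (edgeR adjusted p = 0.291). FASN, the fatty acid synthase gene, fell by 0.57 in 22Rv-1 and by 0.26 in C4-2, where the call was lost with total counts and in limma on FPKM (adjusted p = 0.117 and 0.163). ME1, the cytosolic malic enzyme gene, fell by 0.69 in C4-2, whereas in 22Rv-1 it passed as a rise from counts of 3, 0 and 4 to 18, 13 and 27. RGS16, a regulator of G protein signalling, likewise passed as a rise in 22Rv-1 from 1, 3 and 3 counts to 16, 39 and 22. In C4-2 its counts were 3, 10 and 10 in control and 19, 13 and 18 in ARv7 libraries. That change, 1.06 on the log2 scale, did not pass (edgeR adjusted p = 0.0558), though the groups did not overlap in CPM. ACACA, the other acetyl-CoA carboxylase gene, fell by 0.32 in 22Rv-1.

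**Figure D4:**
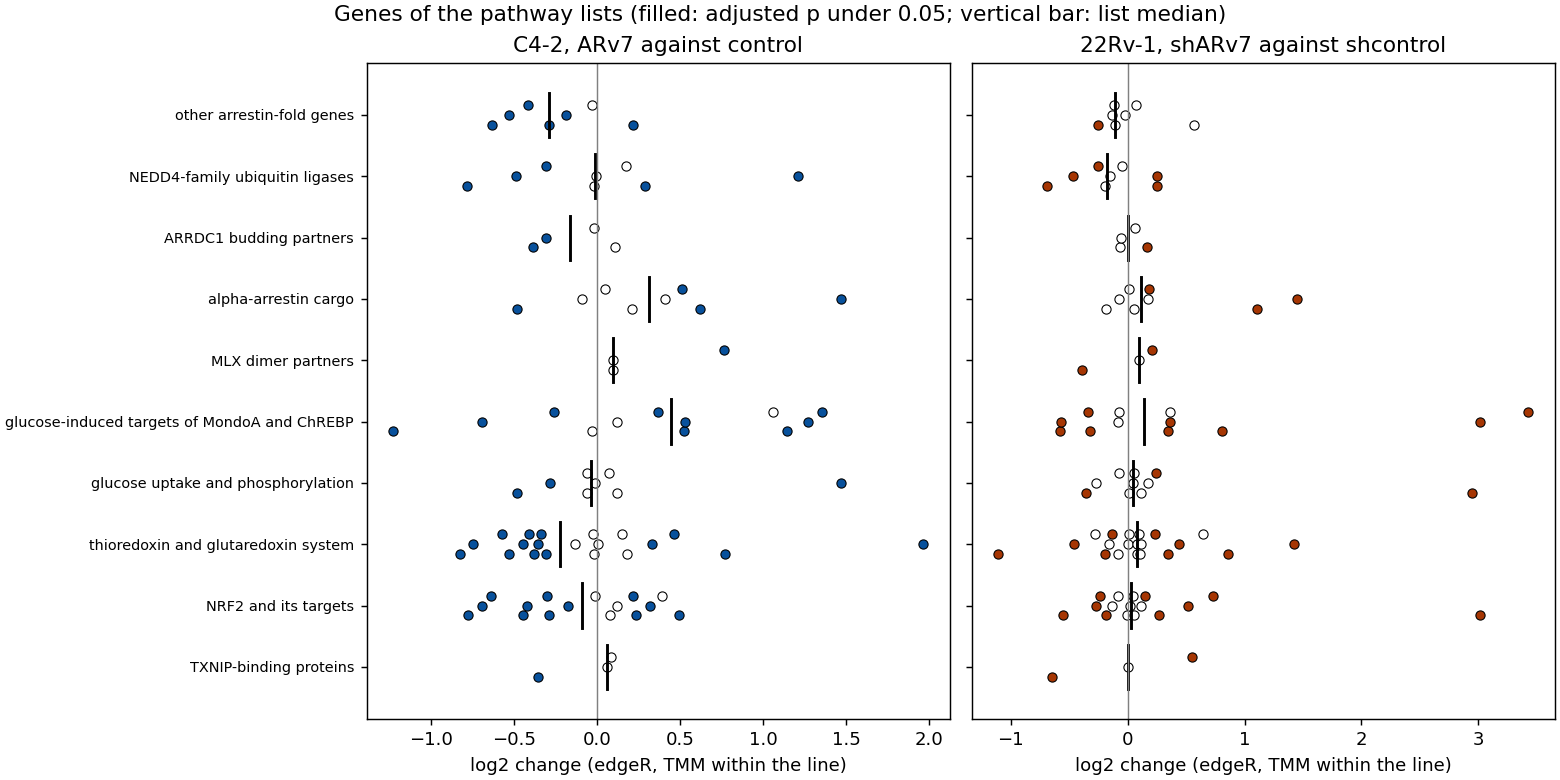
log2 change of every tested gene on each list (x axis, edgeR with TMM), in C4-2 on the left and 22Rv-1 on the right, with filled points for an adjusted p under 0.05 and a vertical bar at the list's median. Most lists hold points on both sides of 0; with total counts the C4-2 points lie about 0.15 further right, which moves the ligase, glucose uptake and NRF2 medians above 0. Some genes, among them SLC2A1, SLC2A4, HK2, ME1 and TXN2, are on 2 lists.

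MLX can also pair with MXD1, MXD4 and MNT, which act as repressors. MNT rose in C4-2 from 21.7 ± 1.56 to 36.8 ± 1.00 CPM (log2 0.77, edgeR adjusted p = 6.58e-07), while MLX fell there. In 22Rv-1 MXD1 fell by 0.39 on the log2 scale and MXD4 rose by 0.21. Of the genes of glucose uptake and first phosphorylation, 1 of 8 rose and 2 fell in C4-2, or 3 and 1 with total counts, and 2 of 10 rose and 1 fell in 22Rv-1. Besides SLC2A1 and SLC2A4, HK1, a hexokinase gene, fell by 0.29 in C4-2 and rose by 0.24 in 22Rv-1; the call in C4-2 was lost with total counts and in limma (adjusted p = 0.0554 and 0.0668). SLC2A10, which encodes the transporter GLUT10, rose in 22Rv-1 from 9, 11 and 7 counts to 46, 81 and 80. In C4-2 it did not pass the filter on low counts, with 0, 1 and 0 counts in control and 15, 6 and 12 in ARv7 libraries. SLC2A12, another transporter gene, fell by 0.36 in 22Rv-1, a call lost in limma and without shcontrol replicate 2 (adjusted p = 0.0694 and 0.0713). HK2 passed in neither line.

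Of 20 tested genes of the thioredoxin and glutaredoxin system beyond TXN and TXNRD1, 4 rose and 10 fell in C4-2, at a median log2 change of -0.22, or 6 and 9 with total counts. Of all genes there, 29.6% rose and 29.5% fell. PRDX5 and PRDX6, peroxiredoxins that use up hydrogen peroxide, fell by 0.83 and 0.58 on the log2 scale. TXNL1, a thioredoxin-like gene, fell from 232 ± 8.42 to 160 ± 0.131 CPM, and TXN2, the mitochondrial thioredoxin gene that TXNIP also binds, fell by 0.35. Against these, MSRB3, a methionine sulfoxide reductase gene, rose from 1.37 ± 0.605 to 5.39 ± 0.437 CPM, TXNRD3 by 0.77 on the log2 scale, NXN by 0.46 and GSR, glutathione reductase, by 0.33. In 22Rv-1, 5 rose and 4 fell, at a median of 0.08. PRDX1 rose there from 93.2 ± 1.63 to 169 ± 5.32 CPM (log2 0.86, edgeR adjusted p = 3.93e-23) where it had fallen by 0.41 in C4-2. PRDX4 rose by 0.44 and MSRB3 by 1.42, while GLRX2 fell by 0.46, GSR by 0.19, PRDX3 by 0.14 and MSRA, from a low level, by 1.11. PRDX3 and MSRA fell in C4-2 too, by 0.38 and 0.75 on the log2 scale (edgeR adjusted p = 1.79e-05 and 0.00141). The 22Rv-1 call of PRDX3 was lost with total counts and without shcontrol replicate 2 or shARv7 replicate 2 or 3 (edgeR adjusted p from 0.0715 to 0.128). The 22Rv-1 call of MSRA was lost with DESeq2 (adjusted p = 0.0998) and without shcontrol replicate 1 or any shARv7 library (edgeR adjusted p from 0.0567 to 0.214).

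NRF2, encoded by NFE2L2, is the factor that induces TXNRD1 and other antioxidant genes under oxidative stress, and KEAP1 holds it back. Of 16 tested genes of this list, 4 rose and 8 fell in C4-2, or 6 and 5 with total counts, and 5 rose and 4 fell in 22Rv-1. NQO1, a quinone reductase and classic NRF2 target, rose in both lines, from 37.0 ± 1.58 to 52.1 ± 0.275 CPM and from 56.9 ± 4.35 to 81.5 ± 3.11 CPM. FTL, the ferritin light chain gene, rose in both by 0.24 and 0.27, and FTH1, the heavy chain gene, rose by 0.22 in C4-2 and fell by 0.55 in 22Rv-1; both C4-2 calls were lost without control replicate 2 (edgeR adjusted p = 0.0755 and 0.138). GCLM, of glutathione synthesis, fell by 0.78 in C4-2, KEAP1 by 0.64 and PGD, of the pentose phosphate pathway, by 0.45, while ABCC1, an export pump, rose by 0.32. NFE2L2 itself, added after its values were seen, fell by 0.29 in C4-2 (edgeR adjusted p = 0.0128), with overlapping groups. In 22Rv-1 PGD fell by 0.27, SLC7A11, the cystine carrier gene, by 0.24 and GCLC by 0.18. In 22Rv-1 the GCLC call was lost with total counts and without shcontrol replicate 1 or any shARv7 library (edgeR adjusted p from 0.0506 to 0.104). SLC7A11 and GCLC fell in C4-2 too, by 0.18 and 0.31 on the log2 scale (edgeR adjusted p = 0.0301 and 0.0114). The C4-2 groups overlapped for SLC7A11. DDIT4, whose protein REDD1 forms a complex with TXNIP, fell in 22Rv-1 from 72.1 ± 4.92 to 46.1 ± 2.39 CPM (log2 -0.65, edgeR adjusted p = 2.93e-12) and stood at 116 ± 5.84 and 120.3 ± 5.52 CPM in C4-2.

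The genes whose pattern over the 12 libraries lay nearest to that of TXNIP were ranked among the 9885 genes that averaged 5 CPM or more in each line. The measure was the root mean square difference in log2 CPM after each line's control mean was subtracted. The nearest were AHNAK2 (1.53), PAM (1.54), SEMA3C (1.56), KRT19 (1.57) and PTTG1 (1.57), so that even the nearest gene lay 1.53 log2 units away. Their changes differed: AHNAK2 was higher by 1.40 in C4-2 and 2.19 in 22Rv-1 on the log2 scale, whereas PTTG1 was higher by 3.87 and 0.06. Of the family, ARRDC3 ranked 7 at 1.59 and ARRDC4 ranked 87 at 1.88, while MLX ranked 9443. Ranks were set by the size of the changes, and 4 of the 5 nearest genes were the same with total counts.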

How the data were processed

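RNA from 12 libraries, 3 in each of 4 groups, was sequenced on an Illumina NovaSeq instrument. Reads were trimmed with Cutadapt 2.7, per the labels' protocols. The aligner, the counting tool and the use of strand are not stated in the sources used. The deposited table holds unnormalised read counts, as whole numbers for each gene, and FPKM, which the authors computed from the counts: dividing each count by the gene length and the library total in the table gave 100% of FPKM values within 1%. Of 19974 lines, 1 names no gene because an annotation broke over it, and it was left out. The submitters' processing notes name the build hg18, but the table's coordinates are those of GRCh38, and they are given as such.

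The counts of each line were tested in edgeR 4.0.16 (filterByExpr, TMM, glmQLFit and the quasi-likelihood F-test), and p-values were adjusted by Benjamini and Hochberg over all genes tested. A single fit of all 12 libraries gave the differences between lines. CPM are TMM-normalised within a line and are not compared between lines. Intervals of log2 changes are 95% intervals. Tried instead were DESeq2 1.42.0, edgeR with the size factors of DESeq2, with total counts, without a filter, with genes averaging 5 CPM or more, with the replicate number as a block and with all libraries in 1 fit, limma 3.58.1 on log2(FPKM + 1) for genes averaging 1 FPKM or more, and leaving out each library in turn. The counts of list genes without C4-2 control replicate 3 and with total counts were added after seeing the data. The pipeline was tested on simulated data.

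The 10 genes and all lists were chosen with earlier results of these data known. Besides the 10 genes, the text names from each list up to 4 called genes with the smallest adjusted p per comparison, any called against the list's majority, and the 5 genes nearest to TXNIP, for which log2 CPM took a prior count of 2. Exceptions are marked, and some genes that the rule took, with the level of the targeted transcript, are not reported here. VPS26C was listed also under its older symbol DSCR3, which the table does not use. The promoter sequences are RefSeq's, and all 10 genes matched by symbol. Exon overlaps come from GENCODE on GRCh38.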

Additional observations from a re-analysis of the deposited data

Results flagged for a closer look

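For 8 of the 9 tested genes the log2 change differed between the lines, by the test of the difference itself in the fit of all 12 libraries (edgeR, adjusted over all genes, of which 50.2% passed). The change in C4-2 minus that in 22Rv-1 was 2.08 for ARRDC3 (adjusted p = 2.50e-16) and 0.62 for ARRDC4 (adjusted p = 0.0147), both of which rose in each line. It was -0.71 for MLX (adjusted p = 8.28e-08), which passed as a fall in C4-2 and did not pass in 22Rv-1. It was -0.45 for TXN (adjusted p = 7.98e-05) and -0.36 for TXNRD1 (adjusted p = 5.27e-05). It was also negative for ARRDC1 at -0.41 (adjusted p = 0.00588), ARRDC2 at -0.44 (adjusted p = 0.0334) and MLXIPL at -0.43 (adjusted p = 0.0372). Without 22Rv-1 shcontrol replicate 3, and also in limma on FPKM, 5 of the 9 genes passed. ARv7 was raised in one line and lowered in the other, so these differences compare opposite changes in different lines.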

How the results depend on the processing

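The counts of genes called stayed within 1.5 times the reported ones under every alternative. Leaving out each library in turn gave 6673 to 7870 calls in C4-2, 5793 to 6532 in 22Rv-1, 6658 to 7218 for the difference of changes and 11640 to 11965 between the control groups. With the replicate number as a block there were 7310, 6203, 6815 and 11777 calls. The numbers gave no sign of pairing the samples. Same-numbered libraries had correlations of their deviations from -0.094 to 0.014, and differently numbered ones from -0.063 to 0.119. The deviations were taken from means of only 3 libraries, so this check cannot exclude pairing. The block ended the MLXIPL calls in C4-2 (adjusted p = 0.0542) and of the difference (adjusted p = 0.0506), and no other call of the 9 genes.

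No log2 change of the 9 genes that passed reversed its direction under any alternative. For the difference of changes, ARRDC1 was lost in limma (adjusted p = 0.0643) and without 22Rv-1 shARv7 replicate 3 (adjusted p = 0.0731). ARRDC2 was lost with total counts, in limma and without C4-2 control replicate 2, C4-2 ARv7 replicate 2, 22Rv-1 shcontrol replicate 3 or shARv7 replicate 2 (adjusted p from 0.0526 to 0.147). MLXIPL was lost with total counts, in limma and without 6 of the libraries (adjusted p from 0.0502 to 0.155). MLXIP passed without C4-2 control replicate 1 (-0.27, adjusted p = 0.0123). TXNIP was 4.43 on the log2 scale in C4-2 with total counts and 4.10 in limma, where a pseudocount of 1 FPKM was added, and 2.84 in 22Rv-1 in limma. The causes were not tested. Without C4-2 control replicate 3, 4 of 8 arrestin cargo genes rose and 1 fell, 6 and 8 of 16 on the NRF2 list, 2 and 0 of 3 MLX dimer partners, and 2 and 2 of 9 glucose uptake genes.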
